A study of Brassica napus with 6 samples.

Results

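Isolated genes are gene models that stand alone on their chromosome. HZ62 is a Brassica napus hybrid, a form of the crop oilseed rape, and the count table of this hybrid is the source of all values. There, 177 of the 64918 genes with identifiers of the A or C subgenome lay at least 30000 bp from the nearest gene on both sides. Distances ran from the end of one gene to the start of the next, and the first and last listed gene of each chromosome were left out. The whole table holds 65535 genes. No expression value entered this choice.

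RNA was sequenced from siliques of 3 to 5 cm, the pods that hold the seeds, from flower buds shorter than 2 mm and from seedlings of 2 weeks, with 2 libraries per tissue. All plants carried the genotype given in the labels as WT and grew at 22 °C during days of 16 h and at 18 °C during nights of 8 h. Libraries were made from polyadenylated RNA, and the labels do not state whether both libraries of a tissue come from different plants. P-values therefore measure the spread between these libraries, which may be technical. The series concerns transcription and histone modifications in hybrids of this species, and the parents were not analysed here.

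The count table held between 2538852 reads in seedling replicate 2 and 15448095 reads in seedling replicate 1, and between 6689132 and 8111828 in the other 4 libraries. It covers 13 chromosomes, A1 to A10 and C1 to C3, and its last gene on C3 ends at 63856963. Reads recovered from a second deposited table of normalized values numbered 24110359 in seedling replicate 1, so the count table leaves out part of the genes. All numbers and shares given here are of the listed genes and not of the whole genome. Positions are those of the table, and the sources used here do not name its genome build. Neither the files nor the reference table pair the identifiers with gene names, as 0 of the 177 matched, so no function is given for any gene and the tissue labels could not be checked against marker genes.

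In plant chromosomes, genes crowd along the arms and thin out towards the centromere, where repeats and transposable elements fill most of the sequence. That repeat-rich sequence is usually packed as heterochromatin, which carries dense DNA methylation and repressive histone marks, while the crowded arms are mostly open euchromatin. Brassica napus is an allotetraploid that combines the A genome of Brassica rapa with the larger, more repeat-rich C genome of Brassica oleracea. A gene far from any neighbour is overlapped by no other gene model of the table. The gap on either side of such a gene is also the flank of the neighbouring gene.

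The isolated genes were spread over all 13 chromosomes. C3 held 27 of them, C2 held 26, C1 and A3 held 22 each, and A4 held the fewest with 3. They were 0.365% of the listed C genes and 0.230% of the listed A genes, that is 75 genes on C1 to C3 and 102 on the A chromosomes. All 22 of those on A3 lay in the last 2 of 10 equal bins along that chromosome's listed range. That stretch holds 388 genes, of which 5.67% were isolated.

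Most isolated genes lay away from the ends of the listed ranges, with 3 of the 177 within 1 Mb of the first or last listed gene. The share of all listed genes there was not computed. The listed range of each chromosome was split into 10 equal bins. Bins 4 to 9 held 146 of the 177, or 82.5%, against 54.5% of all listed A and C genes. This window is not symmetric and was not set in advance. Bin 6 alone held 30, against 2 in bin 1 and 11 in bin 10. Of all listed A and C genes, 7.90% lay in bin 6, 13.2% in bin 1 and 11.6% in bin 10. Bins 9 and 10 include the 22 isolated genes of A3. On C3 the bins cover the listed part of the chromosome. Both strands were used about equally, with 91 genes on the plus strand and 86 on the minus strand.

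**Figure D1:**
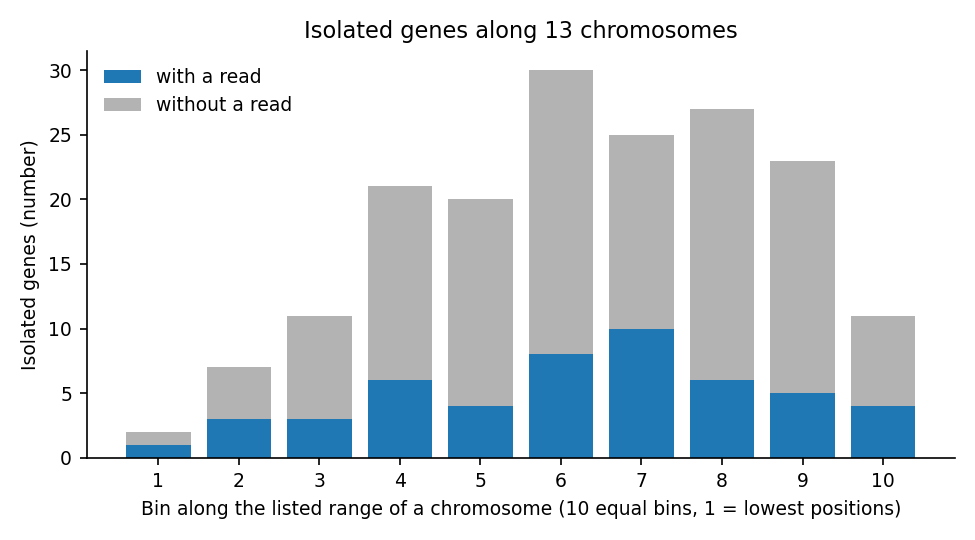
Number of isolated genes (y axis) in each of 10 equal bins along the listed range of a chromosome (x axis), summed over 13 chromosomes, with genes that had a read in blue and genes without a read in grey. Bin 1 holds 2 isolated genes and bin 6 holds 30, of which 8 had a read.

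The smaller of a gene's 2 gaps had a median of 37898 bp and the larger one a median of 74737 bp, with a largest gap of 741472 bp. Surroundings were sparse well beyond the nearest neighbour: a median of 50 other genes lay within 500 kb on either side of an isolated gene, against 148 for the other A and C genes. Gene spans, introns included, had a median of 1566 bp in isolated genes and 1978 bp in other genes, and the longest isolated gene spanned 47386 bp.

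Isolated genes often followed each other. Of the 177, 85 stood in runs of at least 2 consecutive isolated genes. The longest run held 9 genes on C3 between 46844645 and 48290247, a stretch of 1445603 bp in which 1 gene had reads, 9 in all. The next held 6 genes on C2 between 41619007 and 42538299, where 1 gene had 2 reads. There were 5 further runs of 4 genes, a pair of them on A3 and the others on A6, A9 and A10.

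Identifiers in the table rise in steps of 10 along a chromosome. For 174 of the 177 genes the identifiers directly before and after were those of the listed neighbours, so no numbered gene was missing from the gaps. The other 3 have a skipped number beside them.

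Few isolated genes were transcribed at a level these libraries could show. A read in at least 1 of the 6 libraries was found for 50 of 177 (28.2%), against 46595 of 64741 (72.0%) of the other A and C genes. No test was run on this difference, since genes are not replicates. The 127 isolated genes without a read are placed below 0.0601 CPM over the 6 libraries together, the level that 3 counts would give. CPM is the count scaled to a common library size in units of 1e6 reads. As counts often came in pairs, as given below, that level may be set too low. In bulk tissue, expression in few cells and low expression in many cells cannot be told apart.

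Each library showed the gap. In silique, 34 and 35 isolated genes had a read in replicates 1 and 2, or 19.2% and 19.8%, against 59.0% and 57.9% of the other genes. In flower bud, 29 and 31 had one, or 16.4% and 17.5%, against 60.0% and 60.3%. In seedling, 36 and 23 had one, or 20.3% and 13.0%, against 60.5% and 50.3%. Seedling replicate 2, the shallowest library, gave the lowest share in both sets of genes.

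A level of at least 1 CPM in both libraries of a tissue was reached by 23 isolated genes in silique (13.0%), 22 in flower bud (12.4%) and 21 in seedling (11.9%). Among the other genes the shares were 45.8% in silique, 46.3% in flower bud and 45.4% in seedling. In all 6 libraries, 17 isolated genes stood at 1 CPM or more (9.60%), against 38.9% of the other genes.

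Where an isolated gene had reads, it often had few. Of the 50, 20 had 1 to 9 reads over the 6 libraries, 7 had at least 10 but under 100, and 23 had at least 100. With at least 10 reads required, 30 of 177 isolated genes remained (16.9%), against 61.3% of the other genes. Even numbers made up 88.8% of the non-zero counts of isolated genes and 85.9% of those of all genes, so counts often came in pairs and a gene with 2 counts may rest on 1 fragment. No source used here states whether reads that map to several places were counted. A gene with a near-identical copy elsewhere could be listed too low or too high. The part of such copies in the number of genes without reads was not tested.

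Across the whole table the share of genes with a read was lower at larger distances, and the isolated genes are the far end of that order. With a smaller gap of 50 kb and over, 9 of 58 genes had a read (15.5%), and with 30 to 50 kb 41 of 119 did (34.5%). Nearer genes had a read in 58.0% of cases at 10 to 30 kb, 66.0% at 5 to 10 kb, 70.6% at 1 to 5 kb and 76.8% at 0 to 1 kb. Genes that overlap a neighbour broke the order, with 68.2%. Median span did not follow the same order, at 1884.5 bp for gaps of 50 kb and over, 1493 bp for 30 to 50 kb and 1915 bp for 0 to 1 kb.

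**Figure D2:**
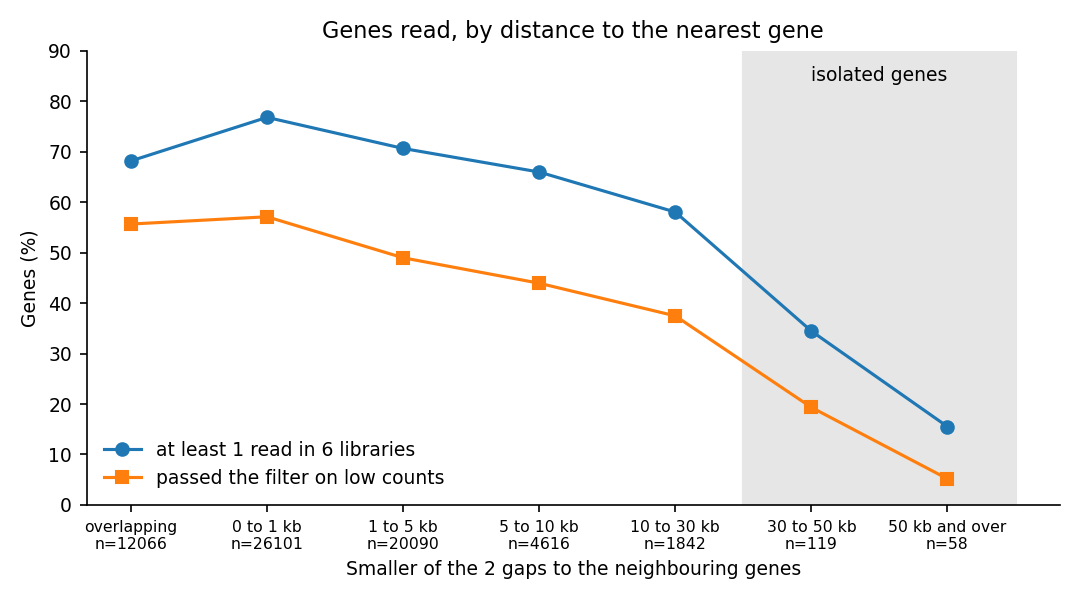
Percentage of genes (y axis) with at least 1 read in 6 libraries (circles) and passing the filter on low counts (squares), by the smaller of the gaps to both neighbours (x axis, number of genes under each class). The share with a read is 15.5% at 50 kb and over and 76.8% at 0 to 1 kb, and the grey area marks the isolated genes.

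The gene nearest the threshold on either side had no read. These are single genes, and 58.0% of all genes with a smaller gap of 10 to 30 kb had a read. ZS11C01G032900, just inside with gaps of 56228 and 30020 bp, and ZS11C02G041450, just outside with gaps of 29980 and 60489 bp, had 0 reads in every library. The 3 genes farthest from any neighbour had none either. ZS11C01G035040 (C1, 30303558 to 30308128, plus strand) and ZS11C01G035050 (C1, 30601348 to 30605835, minus strand) are neighbours across 293220 bp, and ZS11C03G063420 (C3, 47205210 to 47207732, minus strand) has gaps of 212307 and 741472 bp. All 3 had 0 reads in the 6 libraries.

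Sparse surroundings went with fewer reads in other genes too. With under 25 other genes within 500 kb, 23.3% of 43 isolated genes and 26.6% of 94 other genes had a read. With 25 to 49 genes nearby the shares were 17.8% of 45 isolated genes and 42.8% of 676 others, and with 50 to 74 they were 29.6% of 54 and 46.4% of 1983. With 75 and over but under 100 they were 31.3% of 16 isolated genes and 57.2% of 4934 others, and with 100 and over 57.9% of 19 and 74.6% of 57054. The isolated genes were lower in each of these 5 classes, by the least in the sparsest.

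The difference was also present within classes of span, though these are broad and the part of span in it was not tested. Among genes of 4000 bp and over, 37.9% of 29 isolated genes and 88.5% of 12172 others had a read. Among those under 1000 bp the shares were 23.2% of 56 isolated genes and 42.7% of 15208 others. By subgenome, 27.5% of the isolated A genes and 29.3% of the isolated C genes had a read, against 75.04% of the other A genes and 65.3% of the other C genes.

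**Figure D3:**
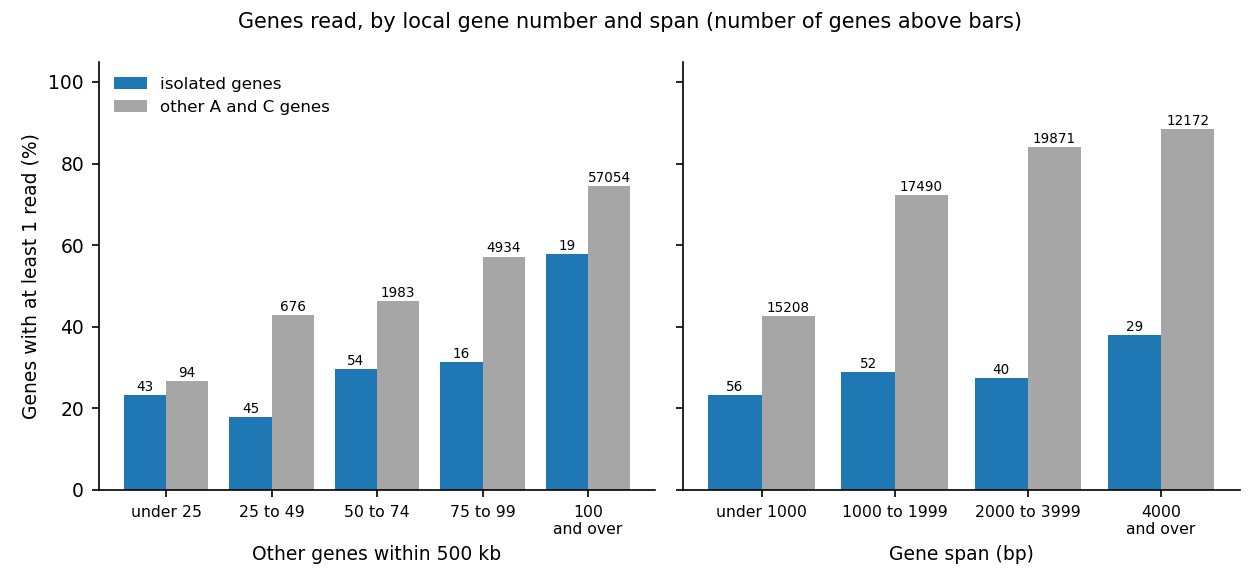
Percentage of genes with at least 1 read (y axis) among isolated genes (blue) and other A and C genes (grey), by the number of other genes within 500 kb (left) and by gene span in bp (right), with the number of genes above each bar. Isolated genes are lower in every class, from 23.3% against 26.6% in the sparsest surroundings to 37.9% against 88.5% among the longest genes.

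The neighbours of isolated genes were also little read. Of the 244 genes that stand directly beside an isolated gene and are not isolated themselves, 38.5% had a read, and a median of 56 other genes lay within 500 kb of them. Among the 50 isolated genes with a read, 7 had reads in both neighbours, 21 in 1 neighbour and 22 in none. Among the 127 without a read, 17 had reads in both neighbours, 47 in 1 and 63 in none. A read in at least 1 neighbour was thus found for 56.0% of the genes with a read and for 50.4% of those without. Isolated genes in runs had a read in 17 of 85 cases, and those outside runs in 33 of 92.

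In sum the isolated genes, which are 177 of the 65535 genes listed, gave a very small part of the reads in the count table. Their reads were 0.0559% ± 0.000391 of the count table in silique, 0.0627% ± 0.00224 in flower bud and 0.0484% ± 0.00627 in seedling (SD, n = 2). In silique the shares were 0.0556% (Wilson 95% interval 0.0540 to 0.0573) and 0.0562% (0.0544 to 0.0580). In flower bud they were 0.0643% (0.0626 to 0.0660) and 0.0611% (0.0594 to 0.0628), and in seedling 0.0528% (0.0517 to 0.0539) and 0.0439% (0.0414 to 0.0466). Before scaling, the 2 libraries of each tissue lay apart from those of the other tissues, with flower bud highest and seedling lowest. After scaling, as given below, this order did not hold and seedling had the highest mean. These intervals cover counting error only and treat each count as independent. As counts often came in pairs, they are too narrow even for that error.

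After scaling, the summed level of isolated genes was 541 ± 5.39 CPM in silique, 549.8 ± 25.5 in flower bud and 567 ± 10.3 in seedling (SD, n = 2). Both silique libraries, at 538 and 545 CPM, lay below both seedling libraries, at 574 and 559.8 CPM. The flower bud libraries, at 568 and 532 CPM, lay on either side of the silique values. No test was run on these sums. One gene, ZS11C02G009440, made up 27.9% of all reads from isolated genes, and the top 3 made up 52.7%. Without that gene the sum was 355 ± 14.0 CPM in silique, 341 ± 16.9 in flower bud and 518 ± 16.8 in seedling, so the remaining 176 genes together gave most in seedling.

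Differences between tissues were tested for every gene of the table with edgeR's quasi-likelihood test. Calls required at least a 2-fold change and an adjusted p under 0.05 (Benjamini-Hochberg, over all 34296 genes tested). Of the 177 isolated genes, 26 passed the filter on low counts and could be tested (14.7%), 16 on A and 10 on C chromosomes, against 52.8% of the other A and C genes. The nearest other tested gene lay between 30031 and 732894 bp from each of the 26, with a median of 74466.5 bp. A gene read in a single tissue passes the filter only through that tissue, so the counts of called genes describe these 26 and not isolated genes at large. Of the 26, 17 were called in at least 1 pair of tissues and 9 in none, where 56.5% of all tested genes were called at least once.

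**Figure D4:**
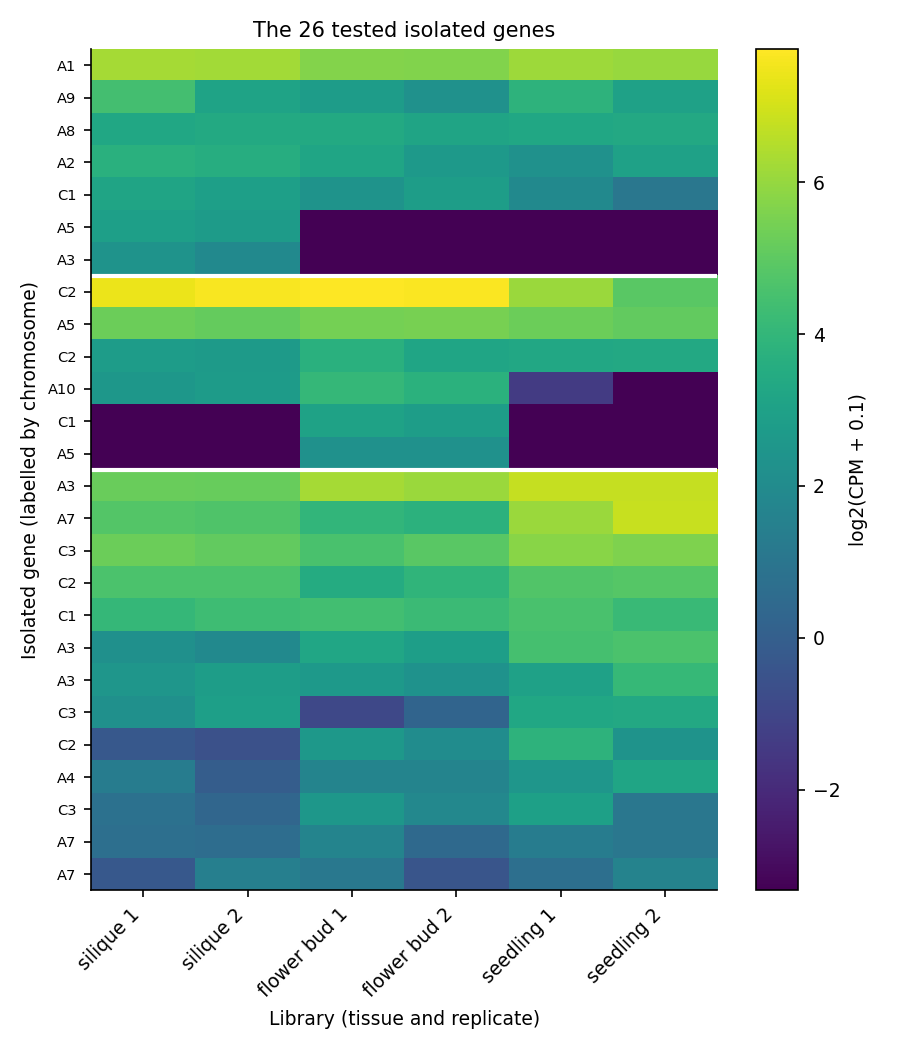
Level of the 26 tested isolated genes (rows, labelled by chromosome) in each library (columns) as log2(CPM + 0.1). Rows are grouped by the tissue with the highest mean, from top to bottom silique (7 genes), flower bud (6) and seedling (13), and 4 genes are dark in every library outside a single tissue.

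In flower bud compared with seedling, 9 of the 26 tested isolated genes were called, 4 higher and 5 lower. This is 34.6%, where 43.0% of all tested genes were called (21.1% higher and 21.8% lower); shares from 26 genes are read in no comparison as a feature of isolated genes. The median log2 fold change of the 26 was -0.25, against 0.12 for all tested genes. Of the 9 calls, 7 held with each of the 6 libraries left out in turn, and 3 of the 5 lower ones were left without flower bud replicate 1. With limma on log2(value + 1), 2 were called lower.

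ZS11C02G009440 (C2, 6239127 to 6241971, plus strand, gaps of 34345 and 36620 bp) was the most expressed isolated gene per length, with a mean of 52.1 CPM per kb of span over the 3 tissues. It stood at 215 and 203 CPM in the flower bud libraries and at 68.5 and 30.1 CPM in seedling. Every flower bud value was above every seedling value, although the seedling libraries lay far apart. The gene rose by 2.01 ± 0.31 on the log2 scale (SE, edgeR adjusted p = 0.000428), or by 2.80 without seedling replicate 1 and 1.62 without seedling replicate 2.

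ZS11A10G008650 (A10, 8601942 to 8604614, minus strand) had 16.3 and 13.4 CPM in flower bud, against 0.282 and 0 CPM in seedling, where it had 4 reads in replicate 1 and none in replicate 2. The groups did not overlap, and the fitted log2 fold change was 5.84 ± 0.50 (SE, edgeR adjusted p = 1.09e-05). Without seedling replicate 1 no seedling read is left and the fitted change, then no measure of size, was 9.73.

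ZS11A07G006760 (A7, 8008457 to 8009949, plus strand) had 15.5 and 13.8 CPM in flower bud, against 67.2 and 112 CPM in seedling. Both flower bud values were far below the seedling values, and the gene fell by 2.57 ± 0.25 on the log2 scale (SE, edgeR adjusted p = 2.26e-05). ZS11A03G059800 (A3, 33527623 to 33534138, plus strand) had 9.37 and 7.34 CPM in flower bud, against 22.1 and 24.1 CPM in seedling. It fell by 1.45 ± 0.24 (SE, edgeR adjusted p = 0.000714), without overlap between the tissues.

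Among the tested isolated genes, a pair was read in flower bud alone. They were chosen after their values were seen and passed the filter on low counts only through flower bud. Their p-values are therefore no separate support for a difference between tissues. They lie on C1 (31492786 to 31494444) and A5 (14095757 to 14097815). The C1 gene had 8.28 and 7.13 CPM in flower bud, while both other tissues had 0 reads. The flower bud level was at least 41.6-fold that of seedling (edgeR adjusted p = 0.000224), with the bound set at 3 counts over both seedling libraries. As counts often came in pairs, this bound and those of the same kind below may be too high. The A5 gene had 4.79 and 4.75 CPM in flower bud and 0 reads elsewhere, which against seedling was at least 25.8-fold higher (edgeR adjusted p = 0.000611).

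There were 3 isolated genes outside the naming rule that were also lower in flower bud, and none of them exceeded 30 CPM in any library. A gene on C3 (45899783 to 45901644) had 0.436 and 1.08 CPM in flower bud, against 9.65 and 10.04 CPM in seedling. It fell by 3.66 ± 0.50 on the log2 scale against seedling (SE, edgeR adjusted p = 0.000196), with a log2 fold change of -4.53 without flower bud replicate 2. The others lie on C2. The gene at 20783889 had 11.1 and 15.1 CPM in flower bud, against 26.9 and 28.1 CPM in seedling, and fell by 1.06 (edgeR adjusted p = 0.00170), a call lost without flower bud replicate 1, where its log2 fold change of -0.96 is under the fold threshold. The gene at 47631572 had 5.88 and 4.10 CPM in flower bud, against 14.2 and 5.02 CPM in seedling. Its call (log2 fold change -1.13, edgeR adjusted p = 0.0468) was lost with any library but seedling replicate 2 left out, and without seedling replicate 1 its log2 fold change was 0.00.

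In silique compared with seedling, 12 of the 26 were called, 6 higher and 6 lower. This is 46.2%, where 34.2% of all tested genes were called (16.2% higher and 18.0% lower). The median log2 fold change of the 26 was -0.21, against 0.03 for all tested genes. The seedling libraries are those of the comparison with flower bud, so the results of these comparisons are not independent of each other. With each library left out in turn, 8 of the 12 calls always held.

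ZS11C02G009440 had 173 and 200.5 CPM in silique, against 68.5 and 30.1 CPM in seedling. It rose by 1.84 ± 0.31 on the log2 scale (SE, edgeR adjusted p = 0.000953), or by 2.64 without seedling replicate 1 and 1.45 without seedling replicate 2, and the groups did not overlap. ZS11A02G030440 (A2, 21902618 to 21903869, minus strand) had 12.9 and 11.9 CPM in silique, against 4.79 and 8.03 CPM in seedling. The silique values were the higher ones, and the gene rose by 1.13 ± 0.34 (SE, edgeR adjusted p = 0.0205). This call was lost without seedling replicate 1 (log2 fold change 0.64, edgeR adjusted p = 0.219), and also without silique replicate 1 (adjusted p = 0.120), without silique replicate 2 (adjusted p = 0.0791) and with DESeq2 (adjusted p = 0.0851). ZS11A10G008650, at 5.74 and 6.67 CPM in silique against 0.282 and 0 CPM in seedling, was higher in silique as well (log2 fold change 4.58 ± 0.54, SE, edgeR adjusted p = 0.000121). That size too rests on the 4 reads of seedling replicate 1, without which the fitted value was 8.47. A gene on C1 (21304769 to 21305993) had 8.61 and 7.54 CPM in silique, against 3.66 and 2.01 CPM in seedling. It rose by 1.31 ± 0.38 (SE, edgeR adjusted p = 0.0178), a call lost without silique replicate 1 (adjusted p = 0.106) or 2 (adjusted p = 0.0615). Without seedling replicate 1 it rose by 2.01.

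ZS11A03G059800 had 4.55 and 3.77 CPM in silique, against 22.1 and 24.1 CPM in seedling, and fell by 2.45 ± 0.27 on the log2 scale (SE, edgeR adjusted p = 7.25e-05). ZS11A07G006760 had 27.9 and 25.8 CPM in silique, against 67.2 and 112 CPM in seedling, and fell by 1.70 ± 0.24 (SE, edgeR adjusted p = 0.000346). Both genes were thus lower in silique, as in flower bud, than in the same seedling libraries.

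Among isolated genes outside the naming rule, the lowest in silique relative to seedling lies on C2 (47631572 to 47633407). It had 0.718 and 0.580 CPM in silique, against 14.2 and 5.02 CPM in seedling. The tissues did not overlap, and the gene fell by 4.03 ± 0.58 on the log2 scale (SE, edgeR adjusted p = 0.000408), with a log2 fold change of -2.90 without seedling replicate 1. A long gene on A3 (40401563 to 40414437) had 36.9 and 36.0 CPM in silique, against 108 and 110.5 CPM in seedling, and fell by 1.59 ± 0.16 (SE, edgeR adjusted p = 5.24e-05). The remaining lower calls were at low levels. A gene on A4 (6978417 to 6985810) had 2.39 and 0.870 CPM in silique, against 5.49 and 9.04 CPM in seedling, and its call (log2 fold change -1.99, edgeR adjusted p = 0.0119) was lost without silique replicate 2 (adjusted p = 0.0924) and had a log2 fold change of -2.92 without silique replicate 1. A gene on C3 (27711817 to 27714344) had 1.68 and 1.16 CPM in silique, against 7.68 and 2.01 CPM in seedling. Its call (-2.02, edgeR adjusted p = 0.0174) was lost without seedling replicate 1 (-0.47, adjusted p = 0.706), silique replicate 1 (adjusted p = 0.0907) or silique replicate 2 (adjusted p = 0.135).

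Silique had its own pair of single-tissue genes among those tested, likewise chosen after their values were seen. They passed the filter on low counts only through silique, so their p-values too are no separate support. On A5 (27824029 to 27824565) a gene of 537 bp had 7.42 and 6.67 CPM in silique and 0 reads in flower bud and seedling. Its level was at least 38.0-fold that of seedling (edgeR adjusted p = 0.000412) and at least 43.3-fold that of flower bud (edgeR adjusted p = 0.000335). On A3 (34510608 to 34511589) a gene had 5.03 and 3.77 CPM in silique and 0 reads elsewhere, at least 23.7-fold the seedling level (edgeR adjusted p = 0.00109).

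In silique compared with flower bud, 9 of the 26 were called, 4 higher and 5 lower. This is 34.6%, where 27.5% of all tested genes were called (14.5% higher and 13.0% lower). The median log2 fold change was -0.03 for the 26 and -0.01 for all tested genes. With each library left out in turn, 5 of the 9 calls always held. The 5 lower calls numbered 3 without flower bud replicate 1 or 2 and 2 without silique replicate 1 or 2.

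ZS11A09G028950 (A9, 21968820 to 22016205, plus strand), the longest isolated gene, had 21.5 and 8.56 CPM in silique, against 6.75 and 4.75 CPM in flower bud. Both silique values lay above the flower bud values, replicate 2 only a little, and the gene rose by 1.40 ± 0.43 on the log2 scale (SE, edgeR adjusted p = 0.0276). The change was 0.58 (adjusted p = 0.403) without silique replicate 1, 1.75 (adjusted p = 0.0633) without flower bud replicate 1 and 1.23 (adjusted p = 0.156) without flower bud replicate 2, so the call was lost each time. It was also lost with limma on log2(value + 1) (0.99, adjusted p = 0.126) and on log2(value + 0.1) (adjusted p = 0.162). ZS11A10G008650 had 5.74 and 6.67 CPM in silique, against 16.3 and 13.4 CPM in flower bud, and fell by 1.26 ± 0.29 (SE, edgeR adjusted p = 0.00716). Its call was lost without flower bud replicate 1 (adjusted p = 0.127) or 2 (adjusted p = 0.0510), and without silique replicate 1 (adjusted p = 0.0883) or 2 (adjusted p = 0.0526), and with limma on log2(value + 0.1) (adjusted p = 0.108).

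The C3 gene at 45899783 had 4.55 and 7.54 CPM in silique, against 0.436 and 1.08 CPM in flower bud. It rose by 2.96 ± 0.50 on the log2 scale (SE, edgeR adjusted p = 0.00138), or by 3.80 without flower bud replicate 2, and the tissues did not overlap. Both tested genes read in silique alone were also called higher here. Of the tested genes read in flower bud alone, the one on C1 was lower in silique by a factor of at least 39.2 (edgeR adjusted p = 0.000328). The one on A5 was lower by a factor of at least 24.3 (edgeR adjusted p = 0.000885). These single-tissue genes passed the filter only through the tissue where they were read, so here too their p-values are no separate support.

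The C2 gene at 47631572 had 0.718 and 0.580 CPM in silique, against 5.88 and 4.10 CPM in flower bud, and fell by 2.90 ± 0.61 on the log2 scale (SE, edgeR adjusted p = 0.00427). This call was lost without silique replicate 1 (adjusted p = 0.0567) or 2 (adjusted p = 0.0557). The C3 gene at 27711817 had 1.68 and 1.16 CPM in silique, against 5.66 and 3.46 CPM in flower bud. Its call (log2 fold change -1.66, edgeR adjusted p = 0.0471) was lost without flower bud replicate 1 (adjusted p = 0.302) or 2 (adjusted p = 0.0852), and without silique replicate 1 (adjusted p = 0.163) or 2 (adjusted p = 0.240).

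Across the 3 tissues, 2 isolated genes were highest in silique, 3 in flower bud and 3 in seedling, in the sense of being called higher there than in both other tissues. The shares among all tested genes were 5.60% for silique, 8.34% for flower bud and 13.4% for seedling. The 2 comparisons behind each class share libraries. Both silique genes and 2 of the 3 flower bud genes were read in that tissue alone. They passed the filter on low counts only through it, so these counts rest partly on the filter. The other flower bud gene is ZS11A10G008650, whose call against silique did not hold with every library left out, as given above. Nor did the call of the C2 gene at 47631572, among those highest in seedling, against flower bud.

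Steady expression occurred too. ZS11C01G037620 (C1, 34579114 to 34583266, minus strand) was the most even isolated gene with at least 10 CPM in every tissue. It had 16.3 and 20.02 CPM in silique, 20.9 and 18.4 CPM in flower bud, and 23.5 and 18.1 CPM in seedling, and its tissue means spanned 0.20 on the log2 scale. The libraries of the 3 tissues overlapped, and no comparison passed the test (edgeR adjusted p between 0.353 and 0.688). In all, 9 of the 26 tested isolated genes were called in no pair of tissues.

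Reads in a single tissue were found for 20 of the 50 isolated genes with a read, 7 in silique, 4 in flower bud and 9 in seedling. This is 40.0%, against 14.9% of the other genes with a read. Most of these genes had few reads: with at least 10 reads required, 5 of 30 isolated genes (16.7%) were read in a single tissue, 3 in silique, 2 in flower bud and 0 in seedling, against 5.04% of the other genes. With at least 1 read required, the share was 35.1% among the genes that flank isolated genes. With a gap of 30 kb or more on 1 side only, it was 24.5% for a downstream gap and 16.5% for an upstream gap. Seedling replicate 2 had the fewest reads of all libraries.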

How the data were processed

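The authors deposited whole-number counts of reads per gene for 6 libraries, with gene positions, per the file headers. The submitters' processing notes name HISAT2, featureCounts, SAMtools, edgeR and GATK, without settings or a genome build. A second deposited table gives normalized signal values, which the authors scaled by TMM according to its name. It was divided by its step to recover reads, which came out whole for 100% of values within 0.05 reads and were used as an alternative.

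Gene positions (start, end and span) are other values that the authors deposited with the counts. The gap before a gene ran from the highest end among earlier genes. Counts were tested with edgeR 4.0.16 in R 4.3.3 (TMM factors, filterByExpr with a minimum count of 10, glmQLFit and glmQLFTest), with all 6 libraries in 1 fit over the whole table and 3 residual degrees of freedom. CPM are relative to count table totals after TMM scaling. Standard errors of log2 fold changes were computed from the F statistic. A fold against a tissue at 0 reads was set against 3 counts over both its libraries. The fit was checked on simulated counts. Alternatives included DESeq2 1.42.0 and limma 3.58.1.

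Named genes were, per pair of tissues, up to 2 higher and 2 lower called isolated genes with the largest fitted change, a mean of 10 CPM or more where higher and libraries that did not overlap, plus those extreme in gap, level per kb or evenness. Other genes are given by position. The members, lists and tests were chosen with earlier results of these data known.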

Additional observations from a re-analysis of the deposited data

How the results depend on the processing

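With gaps of at least 50 kb in place of 30 kb, 15.5% of 58 genes had a read, and with at least 20 kb 41.6% of 421. With at least 3 reads required 23.2% of the 177 passed, and with at least 10 reads 16.9%, settings chosen after seeing the data. Leaving out any 1 library left between 42 and 50 isolated genes with a read.

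Flower bud genes called lower than in seedling numbered 5, but 2 with limma on log2(value + 1), 3 with limma on log2(value + 0.1) and 8 by adjusted p alone. By adjusted p alone, 7 were higher in silique than in flower bud and 5 were highest in seedling. Among genes with gaps of at least 50 kb, 3 were tested, of which 0% were called between flower bud and seedling and 66.7% between silique and flower bud. As a share of all recovered reads, isolated genes gave 0.0361% in silique, 0.0403% in flower bud and 0.0309% in seedling, since that table holds more genes.

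Of the 30 calls over the pairs of tissues, 20 held with each library left out in turn. Leaving out 1 library gave 4 to 5 higher and 3 to 7 lower genes in flower bud over seedling, 4 to 7 higher and 4 to 6 lower in silique over seedling, and 3 to 5 higher and 2 to 5 lower in silique over flower bud. Genes highest in silique then numbered 2 to 3, in flower bud 2 to 3 and in seedling 2 to 4. Where 1 library is left in a tissue, it is assumed to vary like the others. The calls that always held include all those of tested genes read in a single tissue, which passed the filter only through it. Libraries of equal replicate number showed no shared deviation across genes, with correlations of -0.02, 0.00 and -0.03. This cannot exclude a pairing that the labels do not state. With the replicate number as a block the calls were 4 higher and 5 lower, 6 and 6, and 4 and 5 in number as without it, but 4 of the 5 lower in flower bud than in seedling were shared with the calls made without it, and 2 genes in place of 3 were highest in seedling. The log2 fold change of ZS11A03G059800 in flower bud over seedling was -0.92 with limma on log2(value + 1), below the fold threshold. The median shift of all tested genes in flower bud over seedling was 0.12 (TMM), 0.08 (size factors of relative log expression) or 0.17 (upper quartile). For the 10 results of named genes that were recomputed under all 15 alternatives, which leave out ZS11C01G037620 and ZS11A10G008650 in silique over seedling, no direction changed. The fewest isolated genes with a read were found in seedling replicate 2, the library with the fewest reads. The part of depth in this was not tested.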

Other observations

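Genes with a gap of at least 30 kb on 1 side only lay between isolated genes and the rest. With the gap upstream, on the side of the gene's start, 678 of 1174 genes had a read (57.8%) and 40.0% passed the filter on low counts. With the gap downstream, 469 of 939 had a read (49.9%) and 27.7% passed. Genes with no such gap had a read in 72.6% of cases. The genes with an upstream gap were longer, with a median span of 1866 bp against 1490 bp for those with a downstream gap, and as many other genes lay within 500 kb of them (medians of 96 and 92). No test was run on these shares, and the part of span in them was not tested.

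All 8 isolated genes of A6 were without a read, including its run of 4 between 15588682 and 15780903. On A7, 6 of 12 had a read. In the run of 4 on A9 between 21968820 and 22502726, 3 genes had reads, 601 in all.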
